A study of Mus musculus with 2 samples.

Results

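The genes described here are 38 cell cycle genes, given as a list of symbols and all found among the 31253 genes of both deposited count matrices. Of the 38, 12 act mainly in DNA replication and are called S phase genes, 22 act in late cell cycle and mitosis and are called G2/M genes, and 4 (Hmgb2, Cks1b, Stmn1 and Tubb5) are also made by many resting cells and were kept apart. They were measured by droplet single-cell RNA sequencing with 10x Genomics 5′ chemistry in live (DAPI-negative) CD45+ single cells sorted from mouse livers with metastatic tumours of the melanoma cell line B16F10. CD45 marks cells of blood origin, so melanoma cells and hepatocytes lie outside the gate. There was 1 library of wild-type (WT) mice and 1 of Vsig4-/- mice (Vsig4 KO). The labels do not give the animals' age or sex, nor how many mice each library pooled, nor the day of collection. Vsig4 encodes a complement receptor found on Kupffer cells, which are the liver's own macrophages. With 1 library per genotype there is no replicate error and no test of genotype, and every interval below is a 95% interval that covers counting error only. UMIs of these genes cluster in few cells, so the true error is larger than those intervals.

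A dividing cell first copies its DNA in S phase, when the MCM helicase opens the double helix, PCNA clamps the polymerase onto it and enzymes such as ribonucleotide reductase supply nucleotides. In G2 and mitosis, cyclins bound to CDK1, the Aurora and Polo-like kinases and the spindle motors separate the chromosomes, and the anaphase-promoting complex then destroys the cyclins. Most immune cells in the liver are not dividing, while T cells that meet antigen, plasmablasts and macrophages that renew themselves in place can do so. Many S phase genes are regulated by E2F factors. Many G2/M genes are regulated by the DREAM and MuvB complexes, which bind the CHR element, often with NF-Y at CCAAT boxes nearby.

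Motif letters in the promoters differed between the S phase and the G2/M genes, and 6 stretches are printed as examples of the 2 kinds. Windows from 250 bases before to 50 bases after the annotated start were available in the RefSeq table (GRCm38.p6, the same assembly as mm10) for 33 of the 38 genes. Stmn1, Tpx2, Aurkb, Ccna2 and Mcm4 had no window. Each stretch below is the 170 bases before the start, 5′ to 3′ on the gene's strand. Capitals mark E2F motifs (TTTGGCG or TTTCCCG or TTTCGCG or TTTGCCG) in the S phase genes, and CHR motifs (TTTGAA or TTCGAA) and CCAAT boxes in the G2/M genes, each on either strand, so that TTCAAA and ATTGG are matches read from the other strand.
Mcm5, a subunit of the replicative helicase, chr8:75109339-75109508, plus strand: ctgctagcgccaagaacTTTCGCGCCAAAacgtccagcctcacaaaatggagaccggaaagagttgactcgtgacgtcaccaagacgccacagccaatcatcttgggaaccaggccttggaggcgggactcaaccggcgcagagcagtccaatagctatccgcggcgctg
Mcm6, another subunit of that helicase, chr1:128359706-128359875, minus strand: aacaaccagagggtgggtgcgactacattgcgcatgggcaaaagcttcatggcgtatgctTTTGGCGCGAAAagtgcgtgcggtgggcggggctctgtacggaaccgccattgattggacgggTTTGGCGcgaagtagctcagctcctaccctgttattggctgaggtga
Cdc20, activator of the anaphase-promoting complex, chr4:118437344-118437513, minus strand: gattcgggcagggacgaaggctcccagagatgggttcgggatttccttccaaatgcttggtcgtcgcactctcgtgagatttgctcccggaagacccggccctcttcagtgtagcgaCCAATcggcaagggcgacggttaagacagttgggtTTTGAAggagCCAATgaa
Ube2c, the ubiquitin-conjugating enzyme that works with that complex, chr2:164769759-164769928, plus strand: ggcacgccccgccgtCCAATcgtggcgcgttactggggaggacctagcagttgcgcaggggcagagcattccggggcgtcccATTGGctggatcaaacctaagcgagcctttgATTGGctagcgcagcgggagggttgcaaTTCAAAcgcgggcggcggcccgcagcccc
Kif11, the motor that pushes spindle poles apart, chr19:37376212-37376381, plus strand: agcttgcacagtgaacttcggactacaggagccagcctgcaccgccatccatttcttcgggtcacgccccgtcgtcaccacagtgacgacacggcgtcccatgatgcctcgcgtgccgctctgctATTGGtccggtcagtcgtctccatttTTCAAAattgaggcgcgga
Cdk1, the kinase that drives entry into mitosis, chr10:69352913-69353082, minus strand: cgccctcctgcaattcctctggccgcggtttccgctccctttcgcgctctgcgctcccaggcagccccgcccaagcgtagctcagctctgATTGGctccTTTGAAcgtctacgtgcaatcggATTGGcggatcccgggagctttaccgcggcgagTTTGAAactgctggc

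In Mcm5, 2 E2F matches on opposite strands overlapped and began 153 and 148 bases before the start. Mcm6 held 3, of which 2 overlapped. Motifs of the other kind were left in lower case in the stretches. Mcm5 and Mcm6 also held CCAAT boxes there, and Cdk1 an E2F match 131 bases before the start. In Cdc20 the CHR match began 18 bases before the start with a CCAAT box at 53, and in Kif11 the distances were 19 and 45. A gene with more than 1 window was counted once, as holding a motif if any of its windows did. An E2F motif was present in 5 of 11 S phase genes (45.5%), in 4 of 19 G2/M genes (21.1%) and in 7.65% of all 27025 genes in the table. A CHR motif was present in 2 of 11 S phase genes (18.2%), 15 of 19 G2/M genes (78.9%) and 21.7% of all. CCAAT was common in both, at 9 of 11 and 17 of 19 genes against 41.1% of all. The arrangement of a CHR motif from 60 bases before to 44 after the start with a CCAAT box 10 to 60 bases before it was defined after the members' positions had been seen. It occurred in 0 of 11 S phase genes, 11 of 19 G2/M genes (57.9%) and 0.892% of all. These are letter matches, and no binding was measured.

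The WT library kept 6872 cells with 28488091 UMIs and a median of 3073 per cell, and the Vsig4 KO library 5746 cells with 25073374 UMIs and a median of 3306. Vsig4 itself had 43 UMIs in 19 WT cells and 3 UMIs in 3 Vsig4 KO cells. The libraries shared 54 barcodes, none of which was among the cells rich in cell cycle genes described below. The 38 genes together held 37916 WT and 35503 Vsig4 KO UMIs. Cells were assigned to lineages by raw marker UMIs, without clustering and without removing any cycling cells. A lineage needed at least 2 UMIs and a 4 times lead over any other lineage that reached 2, with these exceptions. Cells in which only T and NK markers reached 2 were called T cells, whatever the amounts. Cells in which only monocyte or macrophage and conventional dendritic cell markers did so went to the larger sum, whatever the lead, and ties had no lineage.

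Over all cells, the genes were at nearly the same level in both genotypes. All 38 had at least 20 UMIs over the 2 libraries, and 0 were 1.5-fold higher or 1.5-fold lower in Vsig4 KO, where 7.08% and 7.19% of all 15066 genes with that many UMIs were. Of the 38, 26 were above a ratio of 1 and 12 below, and their median log2 ratio was 0.06 against 0.02 for all genes. The 12 S phase genes summed to 336.6 UMIs per 1000000 UMIs (CPM) in WT and 346.4 in Vsig4 KO, a ratio of 1.03 (0.9996 to 1.06). The 22 G2/M genes summed to 282.5 and 304.8 CPM, a ratio of 1.08 (1.05 to 1.11). The libraries differed in lineage shares, but setting these equal moved the ratio of UMIs per cell little, from 1.08 to 1.11 or 1.07 for S phase genes and from 1.14 to 1.15 or 1.11 for G2/M genes, with the WT or the Vsig4 KO shares respectively.

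Among the replication genes, the 6 helicase subunits Mcm2 to Mcm7 had 540, 778, 842, 550, 1206 and 667 UMIs in WT and 537, 697, 841, 544, 1272 and 597 in Vsig4 KO. Mcm6 was at 42.3 and 50.7 CPM (ratio 1.20, 1.11 to 1.30). Pcna, the sliding clamp, was at 83.1 and 74.6 CPM (ratio 0.897, 0.844 to 0.954). Its partner Pclaf (ENSMUSG00000040204, chr9:65890237-65903266), which binds PCNA at the fork, had 933 and 673 UMIs, or 32.8 and 26.8 CPM (ratio 0.820, 0.741 to 0.906). These 2 were thus lower in Vsig4 KO while the helicase subunits were level or higher. Of the nucleotide enzymes, both subunits of ribonucleotide reductase were higher, Rrm1 at a ratio of 1.21 (1.08 to 1.34) and Rrm2 at 12.4 and 14.96 CPM (ratio 1.21, 1.04 to 1.40). Tyms, thymidylate synthase, was at 12.4 and 11.9 CPM (ratio 0.956, 0.817 to 1.12) and Tk1, thymidine kinase, at 12.04 and 11.4 (ratio 0.947, 0.807 to 1.11), both within counting error of equal.

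Among the mitotic genes, the extremes of the list were Ccna2, cyclin A, at 224 and 289 UMIs or 7.86 and 11.5 CPM (ratio 1.47, 1.23 to 1.75), and Bub1, a kinase of the spindle checkpoint, at 87 and 54 UMIs or 3.05 and 2.15 CPM (ratio 0.705, 0.493 to 1.002). Cdc20 was at 135 and 159 UMIs (ratio 1.34, 1.06 to 1.70). Mki67 (ENSMUSG00000031004, chr7:135689784-135716361), which coats mitotic chromosomes and is the usual marker of dividing cells, was at 41.3 and 47.7 CPM (ratio 1.15, 1.06 to 1.25). Top2a, which untangles chromosomes, had 892 and 810 UMIs, and Birc5, survivin, a part of the chromosomal passenger complex with Aurkb and Cdca8, had 491 and 445. Cenpa, the centromeric histone, had 1514 and 1417. The UMIs of these 3 genes are not scaled, and the Vsig4 KO library held fewer UMIs in all, 25073374 against 28488091. All 22 had ratios between those of Bub1 and Ccna2.

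**Figure D1:**
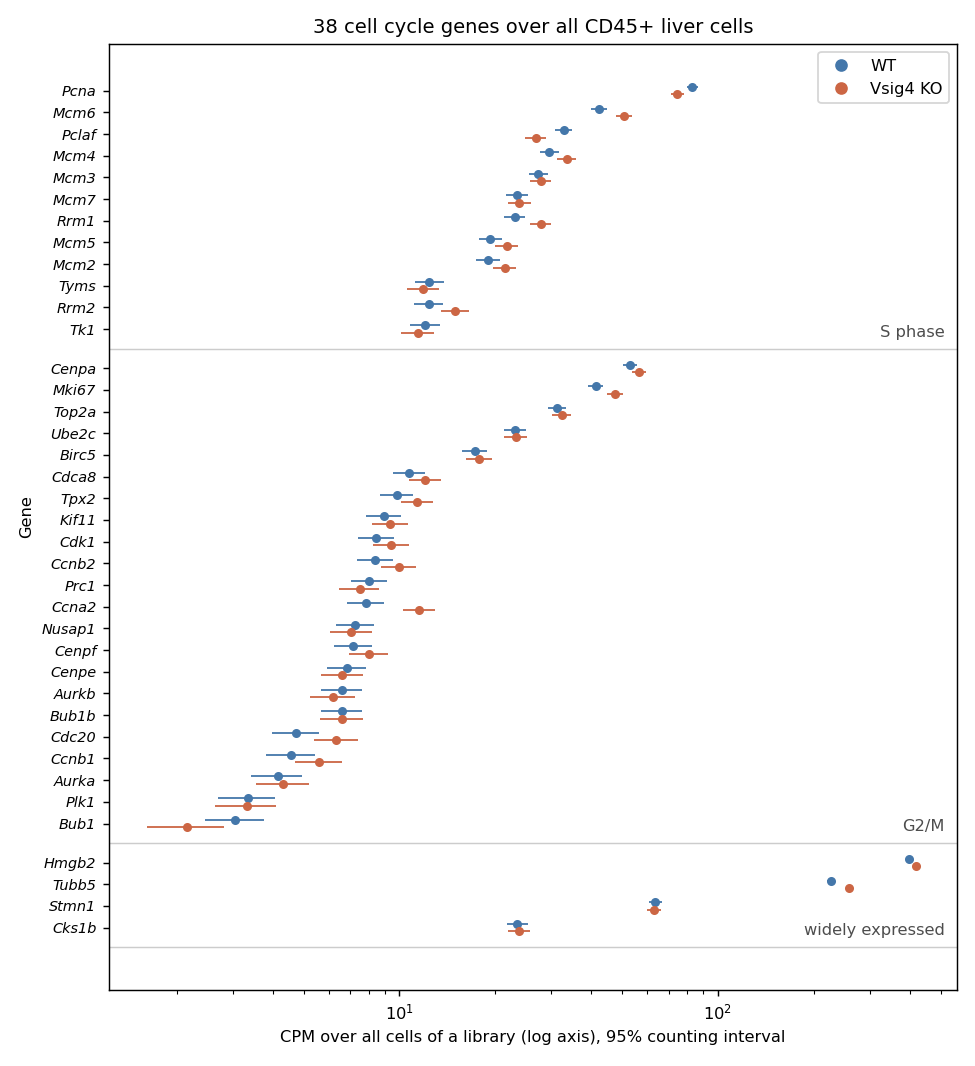
Level of each of the 38 genes over all kept cells of the WT (blue) and Vsig4 KO (orange) library, in CPM on a log axis, with 95% counting intervals as bars; genes are ordered by their WT level within each group. The points of a gene lie close together throughout, the widest gaps being those of Ccna2 and Bub1.

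The UMIs came from a small number of cells. In WT, 5089 of 6872 cells had no UMI of any G2/M gene and 1165 had a single one, while 100 cells had 10 or more and held 66.7% of all G2/M UMIs. In Vsig4 KO the counts were 4109, 1050 and 86 cells, and the 86 held 66.5%. The 39 WT and 31 Vsig4 KO cells with the most accounted for 50% of the G2/M UMIs. S phase UMIs were more spread: 3447 WT and 2771 Vsig4 KO cells had none, 116 and 118 had 10 or more with 40.5% and 41.1% of the UMIs, and 275 and 248 cells accounted for 50%.

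Cells with at least 10 UMIs from at least 5 of the 34 S phase and G2/M genes, a threshold set after the distribution had been seen, are called high cells below. There were 177 in WT (2.58%, 2.21 to 2.98) and 173 in Vsig4 KO (3.01%, 2.58 to 3.49), and they held 55.5% and 56.5% of the UMIs of the 34 genes. The threshold cuts a continuous range: 234 WT and 245 Vsig4 KO cells had 5 to 9 UMIs, and 49 and 43 of the high cells had 10 to 14. High cells were deeper, with a median of 9336 and 9861 UMIs against 3026 and 3257 in the other cells. By the S phase share of their 34-gene UMIs, 59 WT and 64 Vsig4 KO high cells were at 75% or more, 42 and 42 were at 25% or less, and 76 and 67 lay between.

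Each gene was then tied to that pattern without using itself, by asking what percent of its UMIs fell in cells that were high by the other genes alone. For the G2/M genes the median was 80.5% in WT and 82.6% in Vsig4 KO. Ccna2 reached 93.8% and 92.7%, Birc5 92.3% and 89.9%, and Cenpf, a kinetochore protein, 89.2% and 93.0%. Cenpa stood apart at 22.5% and 24.2%, with a UMI in 12.8% of the other WT cells. Even so, Cenpa was at 178.2 CPM in WT and 181.2 in Vsig4 KO in the cells high by the other genes, against 44.1 and 46.3 elsewhere. Aurka, the centrosomal Aurora kinase, and Bub1b, a checkpoint protein, lay between, at 52.5% and 53.7% in WT.

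The S phase genes divided more widely. Pclaf, at 89.6% and 92.1%, and Rrm2, the regulated small subunit of ribonucleotide reductase, at 79.8% and 83.2%, were as concentrated as the mitotic genes. Tyms followed at 67.8% and 66.1%. The helicase subunits ranged in WT from 29.6% for Mcm4 to 50% for Mcm5. Pcna was the least concentrated at 22.7% and 23.8%, with a UMI in 21.6% of the other WT cells. Its level was nevertheless higher in the cells high by the other genes. It was at 296.6 CPM in WT and 230.9 in Vsig4 KO there, against 68.6 and 61.6 elsewhere. Of the widely expressed genes, Tubb5, a beta-tubulin, was at 26.8% and 27.9% and Hmgb2, a chromatin protein, at 35.4% and 36.6%. Stmn1, which destabilises microtubules, reached 66.6% and 62.0%, and Cks1b, a CDK-binding subunit, 56.9% and 61.3%. Hmgb2 and Tubb5 had a UMI in 51.6% and 40.4% of the other WT cells, but Stmn1 in only 7.30% and Cks1b in 3.91%. Tubb5 was still at 873.0 CPM in WT high cells against 177.5 in the others. The widest gaps between the libraries were those of Kif11 (78.0% and 86.8%) and Plk1, the Polo-like kinase (84.2% and 92.8%).

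**Figure D2:**
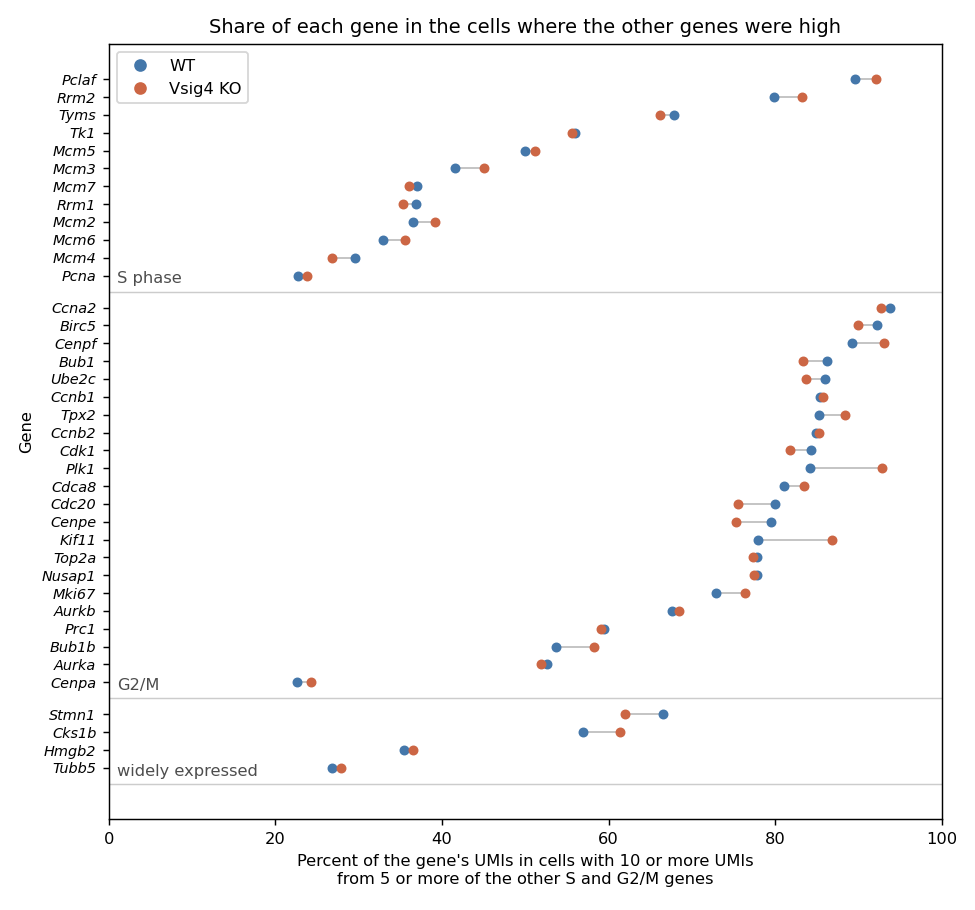
Percent of each gene's UMIs that lay in cells with 10 or more UMIs from 5 or more of the other S phase and G2/M genes, in WT (blue) and Vsig4 KO (orange). Most G2/M genes lie above 70%, while Cenpa, Pcna, Mcm4 and Tubb5 lie below 30%.

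S phase and G2/M UMIs overlapped in the richest cells: 61 WT and 53 Vsig4 KO cells had 10 or more of each. Only 7 and 5 cells had 10 or more S phase UMIs with no G2/M UMI, and 5 and 3 had the reverse. Across T cells, Pearson's correlation of log(1 + UMIs) between the sums was 0.60 in WT (1581 cells) and 0.54 in Vsig4 KO (1649 cells), but both sums share the cell's depth. After each cell was thinned to 1000 UMIs it was 0.29 and 0.23. The other lineages ranged widely after thinning: it was 0.29 and 0.39 in monocytes and macrophages, 0.18 and 0.21 in NK cells, 0.44 and 0.05 in conventional dendritic cells, and -0.01 and 0.10 in B cells.

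**Figure D3:**
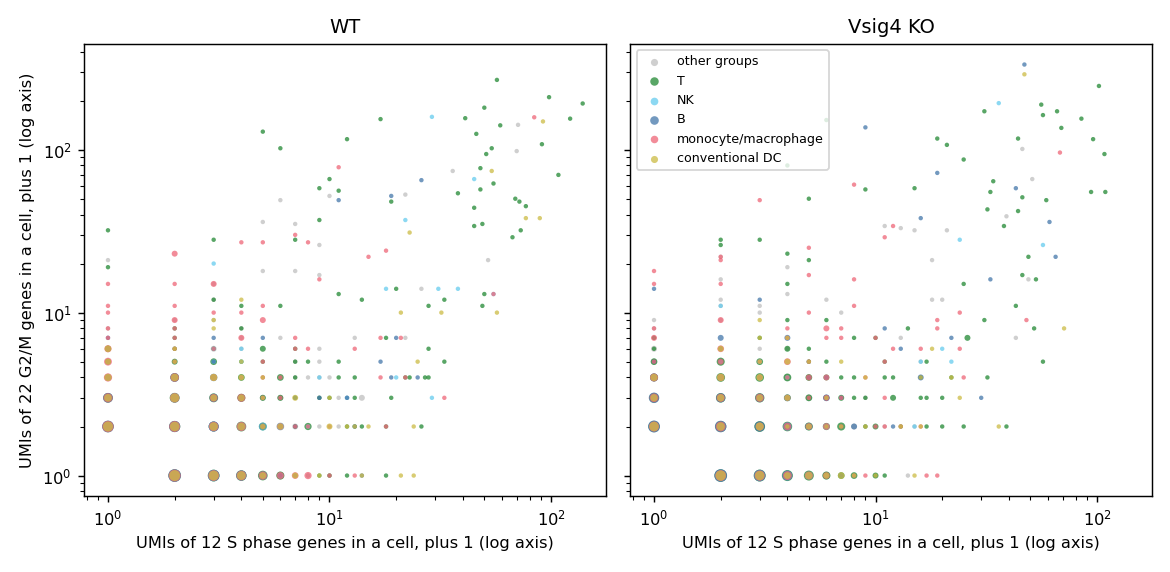
UMIs of the 12 S phase genes (x) against UMIs of the 22 G2/M genes (y) in single cells, each plus 1 on log axes, for WT (left) and Vsig4 KO (right), coloured by lineage; cells with equal values share a point, larger for more cells, and cells with 0 of both are left out. The upper right holds mainly T cells (green) in both libraries.

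T cells supplied the largest part of the UMIs. They were 23.0% of WT and 28.7% of Vsig4 KO cells and held 49.1% and 48.1% of the G2/M UMIs and 38.9% and 44.3% of the S phase UMIs. Of the high cells, 70 and 70 were T cells, 34 and 37 monocytes or macrophages, 18 and 12 conventional dendritic cells, 12 and 17 B cells and 12 and 8 NK cells. Another 17 and 17 had markers of more than 1 lineage, and 13 and 12 had no lineage. Among T cells, the high share was 4.43% in WT (3.47 to 5.56) and 4.25% in Vsig4 KO (3.32 to 5.33). It was 2.05% and 1.88% of NK cells and 4.85% and 5.43% of conventional dendritic cells. In B cells they were 0.617% and 0.817%. Plasmacytoid dendritic cells had 1 high cell among 249 in WT and 0 of 156 in Vsig4 KO, which allows up to 1.92% when a count of 0 is read as at most 3 cells (the exact Clopper-Pearson upper limit is 2.34%). Neutrophils had 0 of 39 and 0 of 36, which allows up to 7.69% and 8.33% by the same rule (9.03% and 9.74%). These neutrophils, which do not divide, held 2 S phase and 2 G2/M UMIs in WT and 4 and 2 in Vsig4 KO, at median depths of 1935 and 2260 UMIs.

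Lineage was assigned from marker UMIs, so high cells of a lineage hold its markers by construction, but not at the same level per UMI. The 4 T cell markers summed to 2346 CPM in WT and 2401 in Vsig4 KO high T cells against 2376 and 2548 in other T cells. In high NK cells the 6 NK markers were at 1458 and 1670 CPM against 3302 and 3412, and in high B cells the 4 B cell markers at 1992 and 2124 against 5189 and 5208. In high conventional dendritic cells their 7 markers were at 1074 and 1307 CPM against 2150 and 2472, and 8 of the 18 WT and 7 of the 12 Vsig4 KO high cells had 10 or more UMIs of them. Summed marker levels were thus lower in the high cells of these 3 lineages and level in T cells. They were higher in monocytes and macrophages, at 7590 and 7240 against 3474 and 4026. Single markers could differ from the sum. In WT conventional dendritic cells Cd209a was lower in high cells, at 477.8 against 1128 CPM. Xcr1 and Clec9a were higher there, at 91.7 against 44.1 and 191.1 against 115.4. Of the 13 WT and 12 Vsig4 KO high cells without a lineage, 7 and 7 had 10 or more UMIs of the 5 melanoma markers, a cell type outside the CD45 gate.

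**Figure D4:**
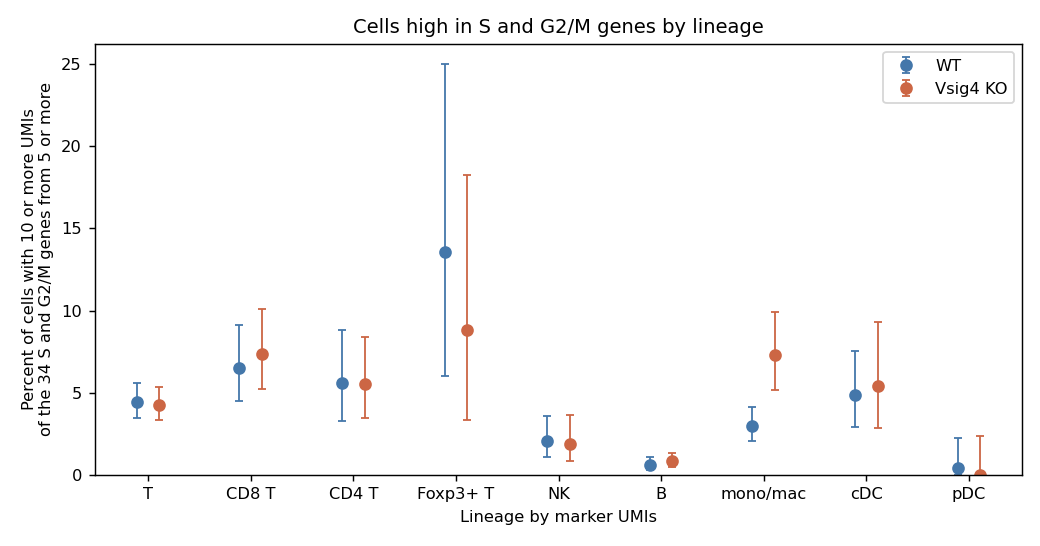
Percent of the cells of each lineage or T cell subset with 10 or more UMIs from 5 or more of the 34 S phase and G2/M genes, in WT (blue) and Vsig4 KO (orange), with exact Clopper-Pearson 95% intervals. The intervals of the genotypes overlap in each lineage but monocytes and macrophages.

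In T cells the genes were lower in Vsig4 KO. The S phase sum was 581.5 CPM in WT and 507.9 in Vsig4 KO (ratio 0.873, 0.835 to 0.914), and the G2/M sum 615.3 and 485.2 CPM (ratio 0.789, 0.754 to 0.825). Of the 38 genes, 31 were below a ratio of 1 and 7 above, with a median log2 ratio of -0.27 against -0.01 for all genes tested in T cells. At least 1.5-fold lower were 4 (Pclaf, Cenpe, Bub1 and Prc1), or 10.5% of 38, where 4.9% of all 11606 genes were, and 0 were 1.5-fold higher, where 5.07% were. Pclaf had 513 and 336 UMIs, or 79.9 and 44.4 CPM (ratio 0.555, 0.482 to 0.638). Cenpe, the kinetochore motor, had 112 and 74 UMIs (ratio 0.560, 0.412 to 0.758), and Prc1, which bundles the midzone of the spindle, 128 and 95 (ratio 0.629, 0.477 to 0.827). Mki67 was at 92.0 and 66.5 CPM (ratio 0.723, 0.641 to 0.816) and Ube2c at 55.8 and 38.03 (ratio 0.682, 0.582 to 0.799). The helicase subunits Mcm4, Mcm5 and Mcm6 and cyclin A stayed within 5% of equal, at ratios of 1.04, 0.993, 1.02 and 0.997. The other helicase subunits were lower, Mcm3 at 0.831 (0.705 to 0.979), Mcm7 at 0.922 (0.767 to 1.11) and Mcm2 at 0.934 (0.762 to 1.15).

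The share of T cells that were high did not differ beyond counting error (ratio 0.959, 0.678 to 1.35). High T cells had a G2/M sum of 3939 CPM in WT and 3398 in Vsig4 KO (ratio 0.863, 0.821 to 0.906). The other T cells had 102 and 99.3 CPM (ratio 0.972, 0.868 to 1.09). These intervals count UMIs and leave out the spread between cells, so the lower sum in high T cells was not tested against that spread. The richest T cell alone held 267 G2/M UMIs in WT and 245 in Vsig4 KO. Of the 70 and 70 high T cells, 19 and 27 had an S phase share of 75% or more. The part of that difference in the lower G2/M sum was not tested. Vsig4 KO T cells were the deeper, with a median of 3971 UMIs against 3418. Thinned to 1000 UMIs, 6.79% of WT and 5.39% of Vsig4 KO T cells had 2 UMIs from 2 genes of a set (ratio 0.794, 0.590 to 1.07). Thinned to 1500 UMIs, 10.5% and 10.8% did (ratio 1.03, 0.821 to 1.29), and without thinning 15.1% and 17.5% had 3 UMIs from 2 genes. The side of equal on which this share lay thus changed with the depth used, and each interval held 1.

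Subsets of T cells did not share 1 pattern. In T cells with CD8 but no Cd4 UMIs (475 and 474 cells) the G2/M sum was 818.9 and 596.8 CPM (ratio 0.729, 0.682 to 0.779) with 31 and 35 high cells. Of these cells, 7 in each library accounted for 50% of the G2/M UMIs. In T cells with Cd4 but no CD8 or Foxp3 UMIs (303 and 378) the S phase ratio was 0.639 (0.582 to 0.701). Their G2/M ratio was 0.670 (0.612 to 0.733), with 17 and 21 high cells, and 3 cells in each library accounted for 50% of the G2/M UMIs. Foxp3+ T cells, which include regulatory T cells, had the highest share of high cells, 13.6% (6.04 to 24.98) and 8.82% (3.31 to 18.2), but only 59 and 68 cells. In the remaining T cells (746 and 731) the S phase sum was 377.9 CPM in both and the G2/M ratio 1.22 (1.10 to 1.37). That ratio also rests on few cells. Of the G2/M UMIs, 1 WT cell held 155 of 564 (27.5%) and 1 Vsig4 KO cell 245 of 767 (31.9%), and 2 Vsig4 KO cells accounted for 50%. High cells among them numbered 14 and 8, or 1.88% and 1.09% (ratio 0.583, 0.212 to 1.49), so their share lay on the other side of equal from the G2/M sum. Thinned to 1000 UMIs, 1.42% and 0.715% had 2 UMIs from 2 G2/M genes (ratio 0.505, 0.135 to 1.62).

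Monocytes and macrophages went the other way. Their S phase sum was 193.9 CPM in WT and 284.0 in Vsig4 KO (ratio 1.46, 1.34 to 1.60), and their G2/M sum 176.4 and 261.3 (ratio 1.48, 1.35 to 1.62). Of the 37 genes with 20 UMIs (Plk1 had fewer), 34 were above a ratio of 1, and 19 or 51.4% were at least 1.5-fold higher, where 6.57% of all 10635 genes were. Only Cenpf was 1.5-fold lower, at 19 and 5 UMIs, where 6.9% of all genes were. Pclaf had 105 and 115 UMIs in 1144 and 508 cells, or 16.1 and 36.2 CPM (ratio 2.24, 1.71 to 2.95). Birc5 was at 10.6 and 24.6 CPM (ratio 2.31, 1.65 to 3.25), Cdk1 at 6.15 and 13.2 (ratio 2.15, 1.36 to 3.40) and Ccnb2, a cyclin B, at 4.15 and 11.02 (ratio 2.65, 1.56 to 4.56). Pcna and Cenpa, the 2 genes with the lowest percent in high cells, were at 1.10 and 1.02. Mcm6 and Rrm1, which were also spread over many cells, were at 1.88 and 1.75.

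Here the share of high cells differed, 2.97% (2.07 to 4.13) in WT and 7.28% (5.18 to 9.90) in Vsig4 KO (ratio 2.45, 1.496 to 4.02). Their number was alike, 34 and 37, whereas the other monocytes and macrophages numbered 1110 and 471. As a share of all cells of the library, high monocytes and macrophages were 0.495% (0.343 to 0.691) and 0.644% (0.454 to 0.886). Thinned to 1000 UMIs, 5.72% and 9.36% had 2 UMIs from 2 genes of a set (ratio 1.64, 1.09 to 2.45), at median depths of 5366 and 5442 UMIs for the lineage. Within high cells the G2/M sum was 2481 and 2008 CPM (ratio 0.809), and in the other cells 85.8 and 106.9 (ratio 1.25, 1.08 to 1.44).

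The high monocytes and macrophages were mostly C1q-rich. C1qb, a subunit of complement C1q made by macrophages, was at 2884 CPM in WT and 2740 in Vsig4 KO high cells against 760.3 and 1074 in the others. Ly6c2, a gene of classical monocytes, was at 73.2 and 189.9 CPM against 607.2 and 607.9, and Spp1, osteopontin, at 61.0 and 100.8 against 889.3 and 725.4. Unlike in T cells, high cells were not deeper than the others, at 4448 and 5112 UMIs against 5385 and 5458. The conventional dendritic cell markers were at 244.0 and 213.2 CPM in them against 72.9 and 68.2, and the part of those markers in the result was not tested. The melanoma markers were at 12.2 and 143.4 CPM against 10.5 and 17.5. Without cells that had 10 or more melanoma marker UMIs, the S phase ratio of the lineage was 1.44 and the G2/M ratio 1.48.

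Splitting the lineage by C1q UMIs, a division made after these values were seen, changed the comparison. Cells with 5 or more UMIs of the 3 C1q genes were 340 in WT (29.7% of the lineage) and 204 in Vsig4 KO (40.2%), and held 28 of 34 and 29 of 37 high cells. Among them the S phase ratio was 1.13 (0.994 to 1.27) and the G2/M ratio 0.908 (0.810 to 1.02), and the share of high cells was 8.24% and 14.2% (ratio 1.73, 0.991 to 3.01). Among the 804 and 304 cells with fewer C1q UMIs, the S phase ratio was 1.65 (1.46 to 1.87). Their G2/M sum was 71.0 and 177.0 CPM (ratio 2.49, 2.14 to 2.91). They held only 6 and 8 high cells, or 0.746% and 2.63% (ratio 3.53, 1.07 to 12.3), and the sums' intervals leave out the spread between cells. The G2/M ratio of the lineage was thus above 1 only in the cells with fewer C1q UMIs, which held 14 of the 71 high cells.

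In B cells the S phase sum was level and the G2/M sum higher in Vsig4 KO. The S phase sum was 246.2 and 244.5 CPM (ratio 0.993, 0.923 to 1.07) and the G2/M sum 125.1 and 203.2 (ratio 1.62, 1.48 to 1.78). Of 36 genes with 20 UMIs, 18 or 50% were at least 1.5-fold higher, where 6% of all 10978 genes were, and 0 were lower, where 4.58% were; 15 of the 18 were G2/M genes. Mki67 had 64 UMIs in WT and 245 in Vsig4 KO (ratio 3.05, 2.31 to 4.08), of which 100 were in 1 cell. That cell alone held 332 of the 1368 Vsig4 KO G2/M UMIs (24.3%) and 704 UMIs of the plasma cell markers Jchain, Sdc1 and Prdm1. Without the richest cell of each library the G2/M ratio was 1.37. Of the high B cells, 5 of 12 and 7 of 17 had 10 or more plasma cell marker UMIs. Outside the high cells the G2/M ratio was 1.03 (0.909 to 1.16), over 1933 and 2065 cells. The level S phase sum joined opposite differences, with a ratio of 1.34 (1.12 to 1.61) in the high cells and 0.877 (0.809 to 0.952) in the others.

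Conventional dendritic cells and NK cells rested on single cells. In conventional dendritic cells (371 and 221) the S phase ratio was 0.867 (0.778 to 0.966) and the G2/M ratio 1.22 (1.07 to 1.37). However, 1 Vsig4 KO cell held 289 G2/M UMIs, 61.6% of the lineage, and 10 UMIs of stem and progenitor markers. Without the richest cell of each library the G2/M ratio was 0.630. Of 32 genes with 20 UMIs, 6 were higher and 7 lower, or 18.8% and 21.9%, where 8.5% and 6.72% of all genes were. Tyms had 49 UMIs in WT and 10 in Vsig4 KO (ratio 0.314, 0.142 to 0.628), and Ube2c 18 and 52, of which 45 were in 1 cell.

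In NK cells (585 and 426) the S phase ratio was 0.878 (0.790 to 0.976) and the G2/M ratio 0.943 (0.828 to 1.07). The richest cell held 28.6% and 46.9% of the G2/M UMIs, and without it in each library the ratio was 0.703. Of 30 genes with 20 UMIs, 2 were higher and 6 lower, or 6.67% and 20.0%, where 6.32% and 7.61% of all genes were. In plasmacytoid dendritic cells the S phase sum was 177.0 and 161.8 CPM and the G2/M sum 49.0 and 41.5, the lowest G2/M level among the 6 lineages plotted.

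**Figure D5:**
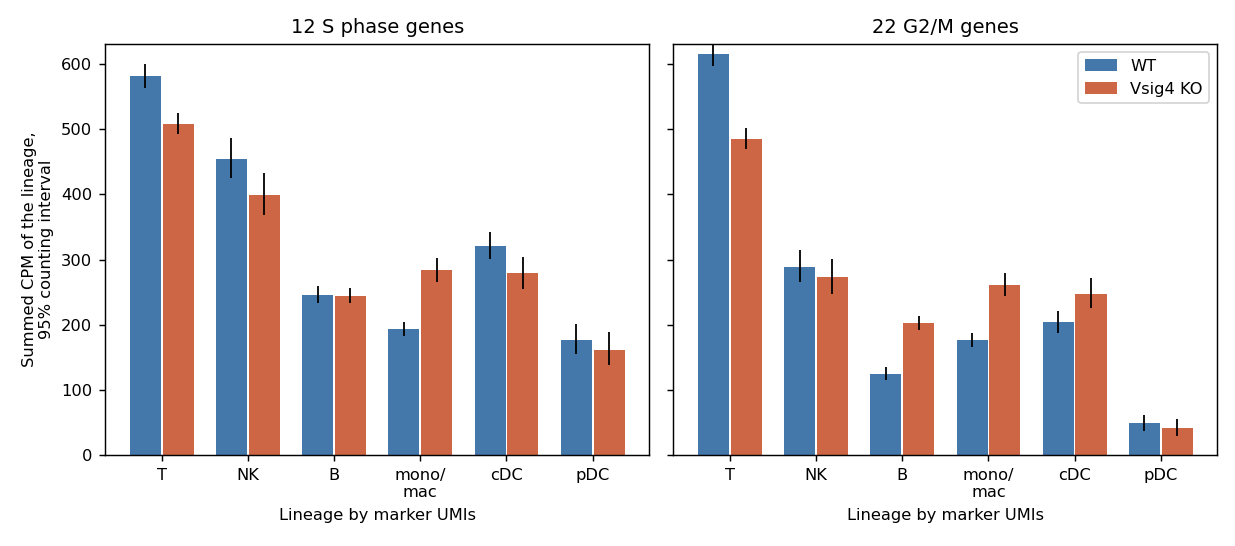
Summed level of the 12 S phase genes (left) and 22 G2/M genes (right) in each lineage, in CPM of that lineage, for WT (blue) and Vsig4 KO (orange); bars start at 0 and carry 95% counting intervals. T cells are highest in both panels and lower in Vsig4 KO, and monocytes and macrophages (mono/mac) are higher in Vsig4 KO in both; cDC and pDC are conventional and plasmacytoid dendritic cells.

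Other cell cycle genes, from lists of 28 replication, 45 G2/M, 8 G1 entry and 11 restraining genes, were counted by the same rule, without the 38. Over all cells 0 of the 28 and 0 of the 45 were 1.5-fold higher, and 1 of each was lower, Mcm10, a replication initiator, at 61 and 32 UMIs and Kif2c, a microtubule depolymeriser, at 44 and 21. Ccnd1, cyclin D1, was at 76.3 and 48.0 CPM (ratio 0.630), and Btg2, which restrains proliferation, at 441.7 and 662.6 (ratio 1.5). In T cells 10 of the 45 G2/M genes were 1.5-fold lower, where 4.9% of all genes were, and 0 higher. In monocytes and macrophages 13 of the 28 G2/M genes with enough UMIs were higher, where 6.57% of all genes were, and 0 lower. In B cells 13 of 32 were higher, where 6% of all genes were, and 0 lower.

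T cells with at least 3 UMIs from at least 2 genes of either set (238 in WT, 288 in Vsig4 KO) were set against the other T cells. That cut used raw UMIs, so deeper cells passed it more easily. Outside the list of 38, 284 genes were more than 2-fold higher in the cells past it in each library (share of all genes not given). The 10 with the largest ratio were the replication histones H2ac4, H2ac10 and H3c3, the mitotic genes Hmmr, Kif4, Ckap2l, Shcbp1 and Sgo2a, the cohesin acetyltransferase Esco2 and the DNA glycosylase Neil3. H2ac4 was at 159.9 and 138.6 CPM in these cells against 0.850 and 0.740 in other T cells. Hmmr, with 81 and 52 UMIs, had 0 in the other T cells of both libraries.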

How the data were processed

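The deposited matrices hold whole-number UMI counts per gene and barcode. Per the submitters' processing notes, the authors made these counts with Cell Ranger 7.1.0 on mm10; how reads shared with near-identical gene copies were counted is not given in the sources used here. Gene positions came from GENCODE M21 and promoter windows from RefSeq. Barcodes with at least 200 genes, 500 UMIs and at most 10% mitochondrial UMIs were kept. The main values used no doublet removal: scrublet in scanpy 1.11.5 marked 0 WT and 1 Vsig4 KO cells by its own threshold, so it did not work here, and removing the top scores (381 and 267 cells, among them 12 and 15 high cells) was an alternative. UMIs were summed per library and lineage and divided by all UMIs of that group (CPM, per 1000000 UMIs). Levels have exact Poisson intervals, shares exact Clopper-Pearson intervals and ratios (Vsig4 KO over WT) exact conditional binomial intervals, all at 95%. Of the lineages, 5 were compared gene by gene: T, NK, B, monocyte or macrophage, and conventional dendritic cells.

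A gene was counted as higher or lower past 1.5-fold with at least 20 UMIs over both libraries; log2 medians used CPM plus 1. T cells with 2 or more Cd8a and Cd8b1 UMIs and no Cd4 UMI were taken as 1 subset. The others were T cells with 1 or more Cd4 UMIs but no CD8 or Foxp3 UMI, and T cells with 1 or more Foxp3 UMIs. Genes named were all 38, Vsig4, the other cell cycle genes past 1.5-fold over all cells with at least 50 UMIs (at most 6) and the 10 leading genes of T cells rich in the list; Ly6c2, Spp1, C1qb and the histones were chosen after their values were seen. The ratio and its interval were tested on simulated independent Poisson counts. Those leave out the clustering of UMIs in few cells, so that test does not show the intervals' coverage in these data. The genes, lists and thresholds were chosen with earlier results of these data known. Alternatives were other cell filters, doublet removal, lineage thresholds, cuts, thinning, edgeR 4.0.16 TMM scaling and the mean of per-cell CPM; those without single cells, shared barcodes or cells with plasma cell or melanoma markers, and the threshold of 10 UMIs, were added after seeing the data. V(D)J and feature barcode data were not analysed here.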

Additional observations from a re-analysis of the deposited data

Results flagged for a closer look

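In 5 genes with at least 50 UMIs in the lineages compared, the ratio of Vsig4 KO over WT lay past 1.5-fold in opposite directions in different lineages. Each lineage had 1 library per genotype, so the difference between lineages was not tested. Pclaf was at 1.99 in B cells and 2.24 in monocytes and macrophages, and at 0.555 in T cells and 0.476 in conventional dendritic cells. Tyms was at 1.66 in monocytes and macrophages and 0.314 in conventional dendritic cells. Top2a was at 2.3 in B cells and 0.58 in conventional dendritic cells. Birc5 was at 2.31 in monocytes and macrophages and 0.513 in conventional dendritic cells, and Stmn1 at 1.74 and 0.626 in the same lineages. Conventional dendritic cells had 18 WT and 12 Vsig4 KO high cells, so these values rest on few cells.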

How the results depend on the processing

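No paired analysis was possible because each genotype has 1 library; for the same reason no library could be left out. Of the alternative values for sums, shares, counts and medians, 172 stayed within the counting interval of the reported value (counts of genes within 1.5 times, medians within the half-width of the interval of the summed S phase and G2/M ratio) and 22 did not. With the mean of per-cell CPM, which weights each cell equally, the S phase ratio was 0.966 over all cells, 0.939 in T cells, 0.912 in B cells and 0.988 in conventional dendritic cells, the G2/M ratio was 0.856 in T cells, 1.27 in B cells, 1.78 in monocytes and macrophages and 0.911 in conventional dendritic cells, and 3 of the 38 genes lay past 1.5-fold over all cells (Ccna2, Cdc20 and Bub1). Nusap1 (0.824) and Kif11 (0.722) in B cells and Cenpe (0.801) in conventional dendritic cells then reversed. The cause was not tested. Leaving out cells with markers of 2 lineages put 1 gene past 1.5-fold (Bub1). The ratio of the share of cells past a cut was 0.932 over all cells and 0.794 in T cells after thinning to 1000 UMIs, 1.01 over all cells and 1.03 in T cells after thinning to 1500, 0.959 in T cells and 2.45 in monocytes and macrophages at 10 UMIs from 5 genes, and 1.43 in B cells at 5 UMIs from 3 genes. Without the richest cell of each library the G2/M ratio was 0.703 in NK cells, 1.37 in B cells and 0.630 in conventional dendritic cells. Without cells rich in plasma cell markers the B cell ratios were 0.918 (S phase) and 1.47 (G2/M), and without the top doublet scores the S phase ratio of monocytes and macrophages was 1.34. Genes under 20 UMIs in a lineage, most often Plk1 and Bub1, could not be compared there.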

Other observations

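Replication-dependent histone genes, whose transcripts mostly lack a poly-A tail and whose synthesis is tied to S phase, differed between the libraries where the S phase genes did not. The 63 such genes found by symbol, a group chosen after its values were seen, were at 716.3 CPM in WT and 1159 in Vsig4 KO (ratio 1.62), against 1.03 for the S phase sum. Of 57 with at least 20 UMIs, 23 were 1.5-fold higher and 1 lower, where 7.08% and 7.19% of all 15066 genes were. Outside the high cells their sum was also higher in Vsig4 KO in each of the 5 lineages compared, at ratios of 1.32 in T, 1.77 in NK, 1.70 in B, 1.37 in monocytes and macrophages and 1.58 in conventional dendritic cells. The cause was not tested.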
